A study of Mus musculus with 10 samples.

Results

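Transcripts of induced primordial germ cells (iPGCs) were set against those of the embryonic stem cells (ESCs) they were made from, in the V6.5 line alone. The comparison rested on 4 of the 10 Affymetrix mouse genome arrays of the series, chosen by their labels: 2 arrays of V6.5 ESCs at day 0, sorted as SSEA1+/cKit+, and 2 arrays of V6.5 iPGCs at day 6, sorted from embryoid bodies (EBs) as SSEA1+/cKit bright. The V6.5 line derives from an F1 cross of 129 and BL6 mice. The ESCs had been kept with LIF on a layer of inactivated mouse embryonic fibroblasts, whereas the EBs grew as hanging drops without LIF after the fibroblasts had been depleted. Cells of both groups were dissociated with trypsin and sorted, and their RNA was amplified before labelling, so culture, age and the brightness of cKit differed between the groups together and cannot be told apart. Day 6 somatic cells of the same line, negative for SSEA1 and cKit (2 arrays), were used only to place genes and sets of genes. The iPGCs of the Oct4-Gfp line (2 arrays), whose mixed background and reporter gate differ, were used only to place single genes.

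Primordial germ cells are the founders of eggs and sperm. In the mouse embryo they are set apart from the epiblast when BMP signals induce Prdm1 and Prdm14, which shut down the somatic programme and keep or regain the pluripotency network that ESCs also use. ESCs hold that network in culture through LIF, which acts by Jak kinases and Stat3. A comparison of iPGCs with the starting ESCs therefore asks which transcripts set the sorted cells apart from a cell that already makes much of the germ cell's pluripotency machinery.

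Signals were compared after adding 14.8 and taking log2, which understates the change of dim genes, and p-values came from a limma model adjusted by the Benjamini-Hochberg method. Of 26372 probe sets tested, 4100 (15.5%) were higher and 3078 (11.7%) lower in V6.5 iPGCs at an adjusted p under 0.05. By gene, with the probe set of highest mean standing for it, 2111 of 12208 (17.3%) rose and 1576 (12.9%) fell, 145 (1.19%) of them at least 4-fold up and 102 (0.836%) at least 4-fold down. The median log2 difference over all genes was 0.05. Higher calls made up 57.1% of the calls, and 38.9% when arrays were centred on their medians, which moved the median over all genes to -0.11. Every difference given here is therefore relative to the scaling of the signals. Without ESC replicate 1, 2139 probe sets were higher and 1482 lower, and without ESC replicate 2, 1793 and 1145, the lone ESC array being assumed to vary like the other groups.

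Across the probe sets tested the ESC arrays correlated with each other at a Pearson r of 0.988 and the V6.5 iPGC arrays at 0.971, and iPGC with ESC arrays at 0.933 to 0.943, which describes the arrays only. The 3′ to 5′ signal ratio of *Gapdh*, a gauge of RNA integrity that grows with degradation, was 1.30 and 1.28 on the ESC arrays and 1.51 and 1.63 on the iPGC arrays, and its part in the differences was not tested. Background, the 95th percentile of 44 olfactory receptor probe sets, lay between 12.6 and 19.9 on these 4 arrays. In sorted populations, fewer cells of a type and less RNA per cell cannot be told apart. Counts for the 36 gene lists below cover members that passed the filter on dim probe sets, 644 of 776 listed genes, and lists share members. A member can pass through the one group in which it is bright, so the counts are a description. They are to be read beside the shares over all genes, 17.3% higher and 12.9% lower. Where limma called no member of a list in a direction, the number at an unadjusted p under 0.05 was 1 of the PGC list, 2 of core pluripotency, 1 of blood and endothelium and 0 of interferon response for falls, and 1 of naive pluripotency, 0 of the integrated stress response, 0 of hypoxia-responsive genes and 0 of glycolysis for rises.

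**Figure D1:**
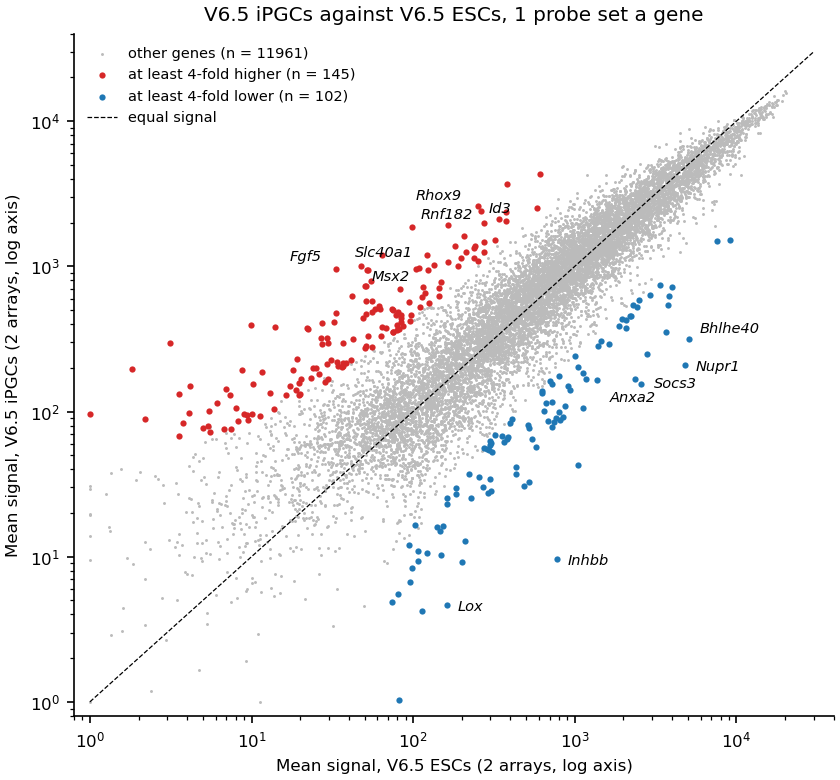
Mean signal of 12208 genes in V6.5 ESCs (horizontal) and V6.5 iPGCs (vertical), 2 arrays each, both axes on a log scale with means under 1 drawn at 1. The 145 genes at least 4-fold higher (red) and the 102 at least 4-fold lower (blue) lie on either side of the dashed line of equal signal, with *Inhbb* farthest below it among the genes named.

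Genes that rose the most were dim in ESCs, and 26 of the 145 that rose at least 4-fold were at background on both ESC arrays. *Rimbp2*, a scaffold protein of synaptic vesicle release, had a signal of 2.33 and 17.5 on the ESC arrays and 398 and 386 on the iPGC arrays (adjusted p = 0.000511). It was at least 25.8-fold higher, a lower bound since both ESC arrays were at background. *Asb4*, a substrate adaptor of ubiquitin ligases, went from 2.53 and 3.70 to 382 and 209 and was at least 18.6-fold higher (adjusted p = 0.000208). Both genes were bright in iPGCs of the Oct4-Gfp line too, where *Rimbp2* had 559.5 and 368 and *Asb4* 381 and 378. They differed in somatic cells of the same day, in which *Rimbp2* had 27.4 and 49.5 and *Asb4* 4508 and 3798. The ubiquitin ligase gene *Rnf182* had signals of 107 and 90.5 in ESCs and 2170.4 and 1537 in iPGCs (log2 difference 4.03 ± 0.22 (SE), adjusted p = 0.000208). Its somatic level was 172 and 166, well below that of iPGCs. *Slc40a1*, the only known iron exporter, rose from 59.8 and 45.1 to 755 and 1145 (log2 difference 3.82 ± 0.23 (SE), adjusted p = 0.000208). *Gpat3*, an acyltransferase of triglyceride synthesis, *Slc16a9*, a monocarboxylate transporter, and *Cyp1b1*, a cytochrome P450, also stood among the 12 largest rises, with log2 differences of 3.90, 3.57 and 3.53. So did the apelin receptor *Aplnr*, which was at least 11.7-fold higher (adjusted p = 0.00262) and, like *Asb4*, far brighter in somatic cells, 5884 and 3664 against 275 and 116 in iPGCs.

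Among the genes that fell, *Inhbb*, which encodes the beta B subunit of activin, led the list. Its signal was 806 and 749 in ESCs and 2.64 and 16.7 in iPGCs, at background on both iPGC arrays, and it was at least 42.0-fold lower (adjusted p = 0.000546). *Nupr1*, a chromatin protein induced by stress, went from 4474 and 5102 to 188 and 230.1 (log2 difference -4.43 ± 0.38 (SE), adjusted p = 0.000539). *Ndufa4l2*, a mitochondrial protein induced by hypoxia, went from 937 and 1143 to 43.7 and 42.6 (log2 difference -4.18 ± 0.21 (SE), adjusted p = 0.000208). The groups of 2 arrays lay more than 10-fold apart for each of these genes. Somatic cells were dim in them too, with 9.70 and 19.3 for *Inhbb*, 255 and 171 for *Nupr1* and 14.5 and 26.6 for *Ndufa4l2*. Only *Ndufa4l2* passed the test against iPGCs, which were brighter (adjusted p = 0.0201). Of the 102 genes at least 4-fold lower, 89 were also lower in somatic cells than in ESCs and 5 higher. Of the 145 at least 4-fold higher, 94 were also higher there and 21 lower. Shares over all genes were not computed. Also among the 12 largest falls were *Sema5b*, a semaphorin, *Pcolce*, which aids the processing of procollagen, and *Dglucy*, a D-glutamate cyclase, with log2 differences of -3.55, -3.33 and -3.41.

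The label iPGC was checked against 9 genes of early germ cells. One of them, *Kit*, encodes the antigen of the gate and is no check. Of the other 8, 5 rose and none fell, and their summed signal was 5409 and 6060.4 in ESCs, 15104 and 14514 in iPGCs, against 904 and 1033 in somatic cells. The study had reported *Rhox6*, *Rhox9* and *Itgb3* as higher in iPGCs from arrays of this series, so their rise is no independent check. Of the remaining genes *Prdm1* and *Dazl* rose, and *Dppa3*, *Dnd1* and *Prdm14* did not pass the test. Over the longer list of PGC specification and early germ cell genes, 8 of 20 tested members rose and none fell, with a median log2 difference of 0.75. *Kit* is among the 8, as are *Rhox6*, *Rhox9*, *Itgb3* and *Id4*, which the study had named from these arrays. The count was 5 without ESC replicate 2 and 13 with limma-trend. *Rhox9* and *Rhox6*, X-linked homeobox genes of the reproductive system, had the largest rises of the list. *Rhox9* had 251 and 255 in ESCs and 2573 and 2642 in iPGCs (log2 difference 3.29 ± 0.23 (SE), adjusted p = 0.000306) and *Rhox6* 228 and 183 in ESCs and 1719 and 1525 in iPGCs (log2 difference 2.90 ± 0.39 (SE), adjusted p = 0.0024). In both, iPGCs also stood above somatic cells, which had 217 and 268 for *Rhox9* and 159 and 258 for *Rhox6*. Both belong to a multigene family, so their probes could also bind transcripts of close relatives. *Itgb3*, the beta 3 integrin subunit, had 70.2 and 41.3 in ESCs and 560.4 and 412 in iPGCs (log2 difference 2.84 ± 0.34 (SE), adjusted p = 0.00158). *Id4*, an inhibitor of basic helix-loop-helix factors, had 266 and 413 in ESCs and 1949.8 and 2284 in iPGCs (log2 difference 2.62 ± 0.32 (SE), adjusted p = 0.00168). In somatic cells *Itgb3* had 421 and 249, which did not pass the test against iPGCs.

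The specification factors themselves moved less. *Prdm1*, the repressor that starts the programme, had 293 and 327 in ESCs and 1137 and 814 in iPGCs (log2 difference 1.59 ± 0.36 (SE), adjusted p = 0.016), and its adjusted p passed 0.05, between 0.0659 and 0.0751, without ESC replicate 1, ESC replicate 2 or iPGC replicate 1. *Prdm14*, its partner in pluripotency and epigenetic control, had 668 and 706 in ESCs and 911 and 941 in iPGCs and did not pass the test (adjusted p = 0.153). *Dppa3*, the marker known as Stella, had 3394 and 3947 in ESCs and 6825 and 6987 in iPGCs (log2 difference 0.91 ± 0.31 (SE), adjusted p = 0.0636), and *Dnd1*, an RNA-binding protein that protects germ cell transcripts, had 349 and 425 in ESCs and 702 and 787 in iPGCs (log2 difference 0.92 ± 0.38 (SE), adjusted p = 0.109). Whether they passed depended on the fit. With the replicate number as a block, the adjusted p was 0.0454 for *Dppa3* and 0.0478 for *Dnd1*, and with only the 4 arrays compared 0.0366 and 0.0426. *Dppa3* also passed with limma-trend and with the offset doubled, and *Dnd1* with only the 6 V6.5 arrays. *Tfap2c*, the AP-2 gamma factor downstream of Prdm1, was already bright in ESCs at 5055 and 5157 and rose to 8804 and 8724 (log2 difference 0.78 ± 0.14 (SE), adjusted p = 0.00645).

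Genes of later germ cells, the piRNA pathway and meiosis were called at shares near those of all genes (17.3% higher and 12.9% lower), 4 of 22 higher and 4 lower, so the counts say nothing of the list. *Dazl*, an RNA-binding protein that licenses germ cells for gametogenesis, had 155 and 175 in ESCs and 677 and 408 in iPGCs (log2 difference 1.59 ± 0.23 (SE), adjusted p = 0.00292) and was near 0 in somatic cells, at 2.41 and 5.38. Of its 2 probe sets 1 passed. The Piwi protein gene *Piwil4* moved the other way, from 194 and 174 to 36.9 and 22.5 (log2 difference -2.18 ± 0.20 (SE), adjusted p = 0.000677), and *Hormad1*, of the meiotic chromosome axis, went from 564 and 397 to 229 and 213 (log2 difference -1.05 ± 0.19 (SE), adjusted p = 0.0076). *Piwil2*, another Piwi gene, and *Smc1b*, a meiotic cohesin, had log2 differences of -1.05 and 1.29. Their calls were lost without ESC replicate 1 (and, for *Piwil2*, without ESC replicate 2 or iPGC replicate 2, and for *Smc1b*, without iPGC replicate 1), with adjusted p of 0.0831 to 0.102 and 0.131 to 0.156. *Ddx4*, the Vasa helicase of established germ cells, had 805 and 656 in ESCs and 752 and 538 in iPGCs and did not pass the test (adjusted p = 0.652).

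The genes behind the sort were read as a check of the gate, and are no finding. *Kit*, the receptor of stem cell factor and the antigen of the gate, had 701 and 627 in ESCs and 1841 and 2072 in iPGCs (log2 difference 1.54 ± 0.28 (SE), adjusted p = 0.00762), so the brighter gate went with a brighter transcript, though without ESC replicate 2 the adjusted p was 0.0505. SSEA1 is a sugar epitope, and of the fucosyltransferases that can make it *Fut4* had 32.9 and 21.2 in ESCs and 60.1 and 55.5 in iPGCs (adjusted p = 0.0686). *Fut9*, with 317 and 267 in ESCs and 172 and 156 in iPGCs, was called lower (log2 difference -0.78 ± 0.20 (SE), adjusted p = 0.023), but leaving out any of the 4 arrays ended that call, at adjusted p of 0.0546 to 0.118.

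**Figure D2:**
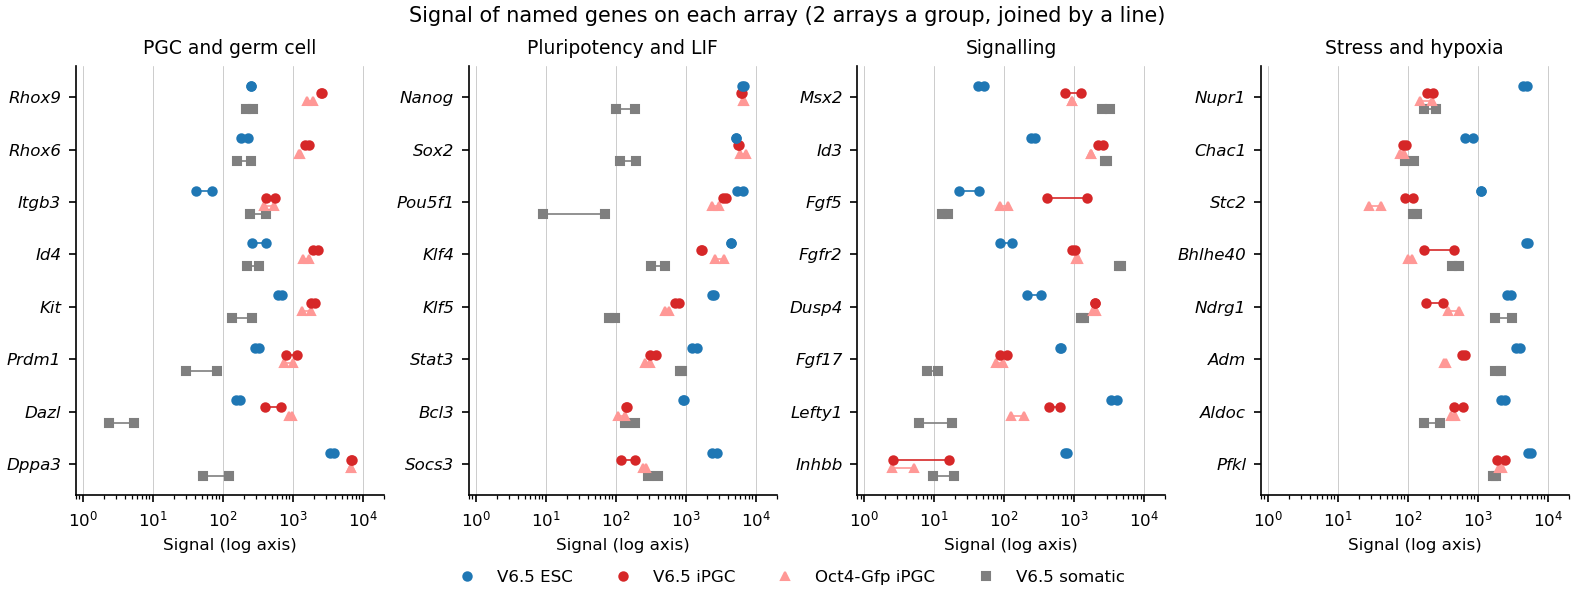
Signal of 32 genes on each array, on a log axis, with the 2 arrays of a group joined by a line: V6.5 ESCs (blue circles), V6.5 iPGCs (red circles), Oct4-Gfp iPGCs (pink triangles) and V6.5 somatic cells (grey squares). In *Rhox9* and *Dazl* the iPGC arrays lie above both ESCs and somatic cells, in *Nanog* and *Sox2* they lie close to the ESC arrays, and in *Nupr1* and *Chac1* close to the somatic arrays.

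Few core pluripotency genes passed the test. Of 18 tested, 2 rose, the transcription factor gene *Zfp281* (log2 difference 0.52) and the telomere and replication factor gene *Rif1* (0.48), and none fell. Both calls were lost when arrays were centred on their medians, when only the 4 arrays compared were fitted and when any of the 4 arrays was left out, at adjusted p of 0.0505 to 0.113 for *Zfp281* and 0.0736 to 0.202 for *Rif1*. The call of *Rif1* was also lost under the replicate block. *Nanog* had 6724 and 6419 in ESCs and 6491 and 6208 in iPGCs (log2 difference -0.05 ± 0.30 (SE), adjusted p = 0.918), and *Sox2* had 5243 and 5308 in ESCs and 5587 and 5768 in iPGCs (log2 difference 0.11 ± 0.41 (SE), adjusted p = 0.867). The iPGC and ESC ranges of *Nanog* overlapped. *Pou5f1*, which encodes Oct4, had 5335 and 6505 in ESCs and 3367 and 3831 in iPGCs (log2 difference -0.71 ± 0.51 (SE), adjusted p = 0.328), so its means differed and its arrays did not overlap, without passing the test. All 6 markers of the ESC label were above background on every array of both groups, with summed signals of 33459 and 33164 in ESCs, 25765 and 26895 in iPGCs, against 829.8 and 1023 in somatic cells, and *Klf4* alone passed the test among them.

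Naive pluripotency and self-renewal genes, by contrast, went down as a list. Of 21 tested, 11 fell and none rose, and the median log2 difference was -0.62. *Klf5*, a Krüppel-like factor of ESC self-renewal, went from 2566 and 2412 to 712 and 796 (log2 difference -1.71 ± 0.20 (SE), adjusted p = 0.00145), although of its 3 probe sets only this one passed. *Gbx2*, a homeobox gene that Stat3 sustains in ESCs, went from 281 and 205 to 54.5 and 60.7 (log2 difference -1.82 ± 0.20 (SE), adjusted p = 0.0012). *Klf4* had 4456 and 4386 in ESCs and 1671 and 1697 in iPGCs (log2 difference -1.38 ± 0.34 (SE), adjusted p = 0.0223), and although its arrays lay far apart, its adjusted p was between 0.0667 and 0.0922 when any of the 4 arrays was left out. *Esrrb*, an orphan nuclear receptor of the naive network, had 5974 and 5559 in ESCs and 3492 and 3405 in iPGCs and did not pass (adjusted p = 0.0859), and *Zfp42*, also known as Rex1, had 5726 and 4987 in ESCs and 5157 and 5986 in iPGCs, with overlap.

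In the LIF and Jak-Stat pathway 8 of 21 tested members fell and 3 rose. *Socs3*, the feedback inhibitor that Stat3 induces, had 2804 and 2352 in ESCs and 119 and 189 in iPGCs (log2 difference -3.97 ± 0.23 (SE), adjusted p = 0.000208), and all 3 of its probe sets fell. *Bcl3*, an I-kappa-B family cofactor, had 929 and 948 in ESCs and 143 and 139.6 in iPGCs (log2 difference -2.61 ± 0.22 (SE), adjusted p = 0.000516). *Stat3* itself had 1232 and 1439 in ESCs and 312 and 380.2 in iPGCs (log2 difference -1.91 ± 0.18 (SE), adjusted p = 0.000824). None of the 3 genes overlapped between groups, and neither did any of the 102 genes at least 4-fold lower, so this adds nothing to the calls. Of the members that act upstream of Stat3, the shared receptor chain *Il6st*, or gp130, had 1132 and 1193 in ESCs and 2189 and 2213 in iPGCs (log2 difference 0.91 ± 0.17 (SE), adjusted p = 0.00726), with 1 of its 4 probe sets passing. The kinase *Jak2* had 175 and 164 in ESCs and 475 and 322 in iPGCs (log2 difference 1.14 ± 0.20 (SE), adjusted p = 0.00645), with both of its probe sets passing. The phosphatase gene *Ptpn11*, the other member that rose, had 1700.3 and 1525 in ESCs and 2851 and 2386 in iPGCs, with 1 of its 3 probe sets passing. It lost its call when arrays were centred on their medians and without ESC replicate 2 or iPGC replicate 1 (adjusted p 0.0593 to 0.0876).

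Promoter windows of the changed genes were compared with those of all genes tested, using 250 bases before to 50 after the annotated start in the RefSeq table for GRCm38.p6, 1 window a gene. Windows were found for 9868 of 12208 genes, 114 of the 145 at least 4-fold higher and 74 of the 102 at least 4-fold lower. The median observed over expected ratio of CpG dinucleotides was 0.469 in genes at least 4-fold lower, 0.624 in those at least 4-fold higher and 0.769 in all. A ratio under 0.5 was found in 52.7%, 38.6% and 18.9% of windows in the same order. Over every gene called, whatever its fold, the values lay nearer to those of all genes, with medians of 0.728 for the 1259 lower windows and 0.765 for the 1705 higher and ratios under 0.5 in 22.4% and 20.9%. The motif TATAAA, the core of the TATA box, was present on either strand in 19 of 74 windows of lower genes (25.7%), 11 of 114 of higher genes (9.65%) and 6.85% of all, but in 8.10% of every lower window and 6.22% of every higher one. Counting only matches on the gene's own strand that begin 40 to 20 bases before the start, where a TATA box works, there were 5 of 74, 1 of 114 and 1.27%. The palindrome TTCNNNGAA, the core of Stat sites, was in 10 of 74 (13.5%), 6 of 114 (5.26%) and 6.42%. The other motifs read were CACGTG (1, 9 and 10.3% in the same order), TGACGTCA (2, 1 and 3.27%), TGANTCA (7, 8 and 4.53%), ATGCAAAT (2, 4 and 1.35%), GGGGCGGGG (12, 31 and 22.9%) and the SRF CArG box (1, 1 and 1.36%), each on both strands and with overlaps counted for each. These are counts of letters, with no test, and a match is not a bound site.

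The stretches below show the Stat palindrome of the 2 largest falls that carry it and the TATA box of 2 genes that fell and 1 that rose, each with up to 35 bases on either side, ending before the start of transcription, read 5′ to 3′ on the gene's strand with the match in capitals. *Socs3* and *Nupr1* follow from the rule for named genes, whereas *Prph*, *Elavl3* and *Cyp1a1* were chosen after their values were seen. The palindrome begins 154 bases before the start in *Socs3* and 128 in *Nupr1*, and the TATA box 31 bases before it in *Prph*, 33 in *Elavl3* and 30 in *Cyp1a1*.
*Socs3* (GRCm38.p6, chr11:117969477-117969555, minus strand): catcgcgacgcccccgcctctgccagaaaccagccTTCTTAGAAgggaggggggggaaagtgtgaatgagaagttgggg
*Nupr1* (GRCm38.p6, chr7:126625555-126625633, minus strand): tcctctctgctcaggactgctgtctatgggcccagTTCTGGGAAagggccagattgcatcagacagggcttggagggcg
*Prph* (GRCm38.p6, chr15:99055108-99055173, plus strand): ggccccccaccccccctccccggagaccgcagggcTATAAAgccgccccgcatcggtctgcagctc
*Elavl3* (GRCm38.p6, chr9:22052024-22052091, minus strand): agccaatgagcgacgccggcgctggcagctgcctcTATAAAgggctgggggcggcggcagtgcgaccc
*Cyp1a1* (GRCm38.p6, chr9:57697548-57697612, plus strand): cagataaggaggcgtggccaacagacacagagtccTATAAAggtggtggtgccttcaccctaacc
The neuronal genes *Prph*, an intermediate filament, and *Elavl3*, an RNA-binding protein, fell by 2.33 and 2.26 on the log2 scale, and *Cyp1a1*, a cytochrome P450 of the aryl hydrocarbon response, rose by 2.09.

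Signalling genes of the early embryo changed with different signs by pathway. In the Nodal and activin pathway 5 of 22 rose and 4 fell, near the shares of 17.3% and 12.9% over all genes, so the counts say nothing of the list. Beside *Inhbb*, the ligand subunit *Inhba* fell and was at least 4.85-fold lower (65.2 and 124 to 5.64 and 18.4, adjusted p = 0.005). *Lefty1*, a secreted Nodal antagonist that Nodal itself induces, had 3408 and 4146 in ESCs and 447 and 631 in iPGCs (log2 difference -2.79 ± 0.39 (SE), adjusted p = 0.00283). *Cfc1*, a Nodal co-receptor also known as Cryptic, had 37.8 and 16.7 in ESCs and 286 and 299.5 in iPGCs (log2 difference 2.92 ± 0.37 (SE), adjusted p = 0.00194) and reached 2144 and 1201 in somatic cells. The activin antagonist *Fst*, follistatin, had 76.9 and 48.4 in ESCs and 276 and 234 in iPGCs (log2 difference 1.82 ± 0.32 (SE), adjusted p = 0.00597), with 1 of its 2 probe sets passing. Its signal in the Oct4-Gfp iPGCs was 55.2 and 30.0, against which V6.5 iPGCs did not pass the test (adjusted p = 0.0695). The activin receptor gene *Acvr2a* rose as well (log2 difference 0.79 ± 0.16 (SE), adjusted p = 0.0105). Its call was lost with arrays centred on their medians and with only the 4 arrays compared. Among the members named, both activin subunits and *Lefty1* fell while an antagonist, a co-receptor and a receptor rose.

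Genes of the BMP pathway and its targets rose. Of 21 members tested 13 rose and 1 fell, with a median log2 difference of 0.79, and 7 of the 13 rose at least 4-fold. *Msx2*, a homeobox target of BMP, had 42.4 and 52.5 in ESCs and 1263 and 737 in iPGCs (log2 difference 3.98 ± 0.27 (SE), adjusted p = 0.000274). *Msx1* had 25.8 and 18.3 in ESCs and 460.0 and 291 in iPGCs (log2 difference 3.38 ± 0.24 (SE), adjusted p = 0.000369), with 1 of its 2 probe sets passing. *Id3* and *Id2*, inhibitors of differentiation that Smads induce directly, had 281 and 243 in ESCs and 2198 and 2589 in iPGCs (log2 difference 3.12 ± 0.14 (SE), adjusted p = 0.000208) and 126 and 120.4 in ESCs and 979 and 899 in iPGCs (log2 difference 2.79 ± 0.25 (SE), adjusted p = 0.000633). The 4 genes did not overlap between groups, nor did any of the 145 genes at least 4-fold higher. All 4 had bright signals in somatic cells too, *Msx1* 4732 and 4137 and *Id3* 2933 and 2786. The zinc finger factor *Gata2* had 274 and 208 in ESCs and 1639 and 1114 in iPGCs (log2 difference 2.43 ± 0.35 (SE), adjusted p = 0.00301), with a lower somatic signal of 371 and 421. The ligand gene *Bmp4* was the member that fell, with 418 and 304 in ESCs and 144 and 231 in iPGCs, and without ESC replicate 1, ESC replicate 2 or iPGC replicate 1 its adjusted p was 0.0554 to 0.161.

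FGF and ERK genes split almost evenly, with 7 of 26 higher and 8 lower. *Fgf5*, a ligand of the post-implantation epiblast, had 43.7 and 22.5 in ESCs and 1511 and 407 in iPGCs (log2 difference 4.10 ± 0.71 (SE), adjusted p = 0.0059). Its iPGC arrays lay more than 3-fold apart, and the Oct4-Gfp iPGCs had 115 and 88.3, against which V6.5 iPGCs did not pass the test (adjusted p = 0.0991). The receptor *Fgfr2* had 87.7 and 131 in ESCs and 933 and 1025 in iPGCs (log2 difference 3.02 ± 0.18 (SE), adjusted p = 0.000208), and *Dusp4*, a phosphatase that ERK induces and that turns ERK off, had 340.1 and 211 in ESCs and 1985 and 1966 in iPGCs (log2 difference 2.81 ± 0.23 (SE), adjusted p = 0.000506). Lower were the ligand *Fgf17*, with 656 and 641 in ESCs and 88.9 and 112 in iPGCs (log2 difference -2.54 ± 0.17 (SE), adjusted p = 0.000275), the ERK target *Etv4*, with 996 and 998 in ESCs and 149.9 and 332 in iPGCs, and the feedback inhibitor *Spry4*, with 1371 and 1043 in ESCs and 329.8 and 354 in iPGCs. The calls of *Etv4* and *Spry4* were lost with single arrays left out, for *Etv4* without ESC replicate 1, ESC replicate 2 or iPGC replicate 1 (adjusted p 0.0682 to 0.0753) and for *Spry4* whichever of the 4 was omitted (0.0622 to 0.103). Known targets and feedback regulators of ERK thus had both signs.

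In the Wnt pathway 9 of 29 rose and 3 fell, beside 17.3% and 12.9% of all genes. The ligand *Wnt3*, needed for the primitive streak, was at background in ESCs and at least 4.95-fold higher in iPGCs (1.16 and 12.4 to 88.6 and 63.9, adjusted p = 0.00156). *Dkk1*, a secreted antagonist and target of the pathway, was likewise at least 6.20-fold higher (11.1 and 6.84 to 116 and 76.8, adjusted p = 0.00136). *Cdx2*, a caudal homeobox target, had 25.6 and 29.3 in ESCs and 550.3 and 265 in iPGCs (log2 difference 3.24 ± 0.37 (SE), adjusted p = 0.00132), with 1 of its 2 probe sets passing. Somatic cells were brighter, with 468 and 406 for *Wnt3*, 642 and 552 for *Dkk1* and 1874 and 2373 for *Cdx2*. Over the list 18 of 29 members were lower in iPGCs than in somatic cells and 4 higher, beside 24.2% and 27.3% of all genes. Among the members that fell, *Sfrp1*, a secreted antagonist, had 2308 and 2240.3 in ESCs and 727 and 583 in iPGCs, and leaving out any of the 4 arrays ended its call (adjusted p 0.0883 to 0.14). In the Hedgehog pathway, 2 of 9 rose and 3 fell, beside the same shares of all genes. The activator genes *Gli1* and *Gli2* both fell. *Gli1* had 339.5 and 528 in ESCs and 66.4 and 15.9 in iPGCs (log2 difference -3.14 ± 0.48 (SE), adjusted p = 0.00372). *Gli2* had 1228 and 1362 in ESCs and 473 and 239 in iPGCs (log2 difference -1.89 ± 0.28 (SE), adjusted p = 0.00332).

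The list with the largest upward median was that of primitive streak and early mesoderm, of which 13 of 16 rose, 8 of them at least 4-fold, and 1 fell (median log2 difference 1.90). *Evx1*, a homeobox gene of the posterior streak, had 22.6 and 30.9 in ESCs and 311 and 330.3 in iPGCs (log2 difference 3.02 ± 0.17 (SE), adjusted p = 0.000208). *Hand1*, a bHLH factor of mesoderm and trophoblast, had 16.9 and 42.7 in ESCs and 280.0 and 309 in iPGCs (log2 difference 2.86 ± 0.26 (SE), adjusted p = 0.000689). The heart field factor *Tbx20* had 34.7 and 29.6 in ESCs and 407 and 421 in iPGCs (log2 difference 3.19 ± 0.24 (SE), adjusted p = 0.000371). These levels were well below those of the somatic cells sorted from EBs of the same day and line. The iPGC mean was 5.21% of the somatic mean for *Hand1* and 6.37% for *Tbx20*. Over the list, somatic cells exceeded iPGCs in 12 of 16 members and fell short of them in 2, where by the same test 24.2% of all genes were below their somatic level in iPGCs and 27.3% above it.

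Markers of somatic cells that could lie in the gate were read as a set. Of 7 with a probe set, 4 were above background on both iPGC arrays and 2 on neither, and the summed signal was 72.9 and 132 in ESCs, 813 and 913 in iPGCs, against 24958 and 22719 in somatic cells. Besides *Hand1* and *Tbx20*, the endothelial receptor *Kdr* had 73.5 and 70.8 in iPGCs against 1476 and 1236 in somatic cells, or 5.32%. The cardiac troponin gene *Tnnt2*, with 21.0 and 45.7, was at 2.18% of its somatic mean and did not pass the test against ESCs (adjusted p = 0.0863). The embryonic globin gene *Hbb-bh1*, with 9141 and 8011 in somatic cells, was at background in iPGCs, with 3.03 and 11.2. Of the endoderm markers, *Ttr* was above background on both iPGC arrays but uneven, with 157 and 35.6, *Sox17* had 56.3 and 9.87, and *Afp* was at background. The part of somatic cells within the gate in the streak and heart differences was not tested.

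Lists of other lineages had smaller shares of members called than the streak list. Of the heart list 7 of 21 rose and 2 fell, of blood and endothelium 2 of 17 rose, and of endoderm 3 of 14 rose and 1 fell. Over all genes 17.3% rose and 12.9% fell, so blood and endothelium rose by a smaller share and endoderm by one near it. Posterior homeobox genes rose in 7 of 20 cases and fell in 2, with *Hoxd9* at 22.7 and 33.9 in ESCs and 181 and 138 in iPGCs (log2 difference 2.02 ± 0.33 (SE), adjusted p = 0.00462) and a somatic level of 2863 and 4046, and *Hoxb4*, at background in ESCs, at least 2.33-fold higher. *Hoxb1*, a 3′ Hox gene, had 6.09 and 18.5 in ESCs and 13.7 and 14.6 in iPGCs, at or near background in both groups. Trophoblast and extraembryonic ectoderm genes rose in 8 of 14 cases and fell in 3. *Plac1*, an X-linked placental gene, was at least 8.55-fold higher (0.339 and 6.76 to 110.4 and 153, adjusted p = 0.00215) and had 3816 and 4314 in somatic cells, and *Ascl2*, a bHLH factor of the trophoblast, fell (299.6 and 289.9 in ESCs and 69.4 and 72.2 in iPGCs, adjusted p = 0.00715). Of the epiblast and neural list 6 of 15 fell and only *Fgf5* rose. That count depended on the filter. When a probe set had to pass it on 4 arrays, 9 members were tested, of which 2 fell and 1 rose. *Hesx1*, a homeobox repressor of the anterior embryo, had 275 and 327 in ESCs and 57.6 and 64.4 in iPGCs (log2 difference -2.06 ± 0.22 (SE), adjusted p = 0.00106), and *Tubb3*, neuronal tubulin, had 2137 and 2036 in ESCs and 419.7 and 641 in iPGCs (log2 difference -1.98 ± 0.23 (SE), adjusted p = 0.00152).

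**Figure D3:**
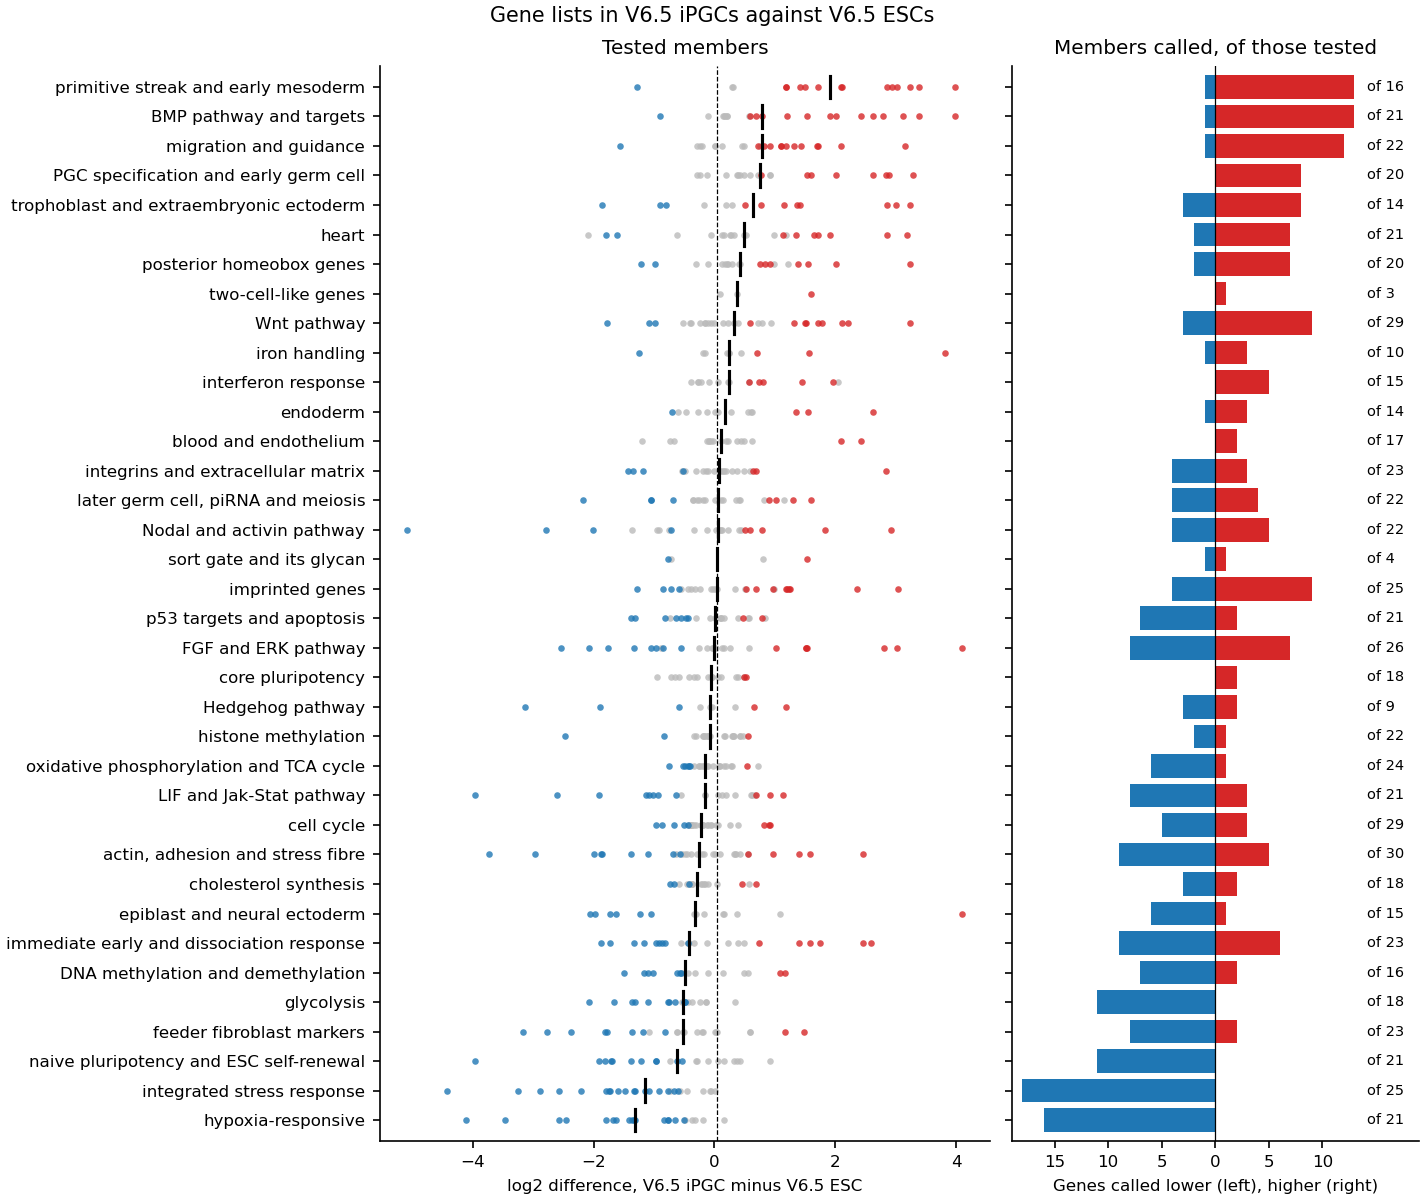
Left, log2 difference (V6.5 iPGC minus V6.5 ESC) of each tested member of 36 gene lists, red where higher and blue where lower at an adjusted p under 0.05 and grey where not called, with a black bar at the list's median and a dashed line at the median of all genes, 0.05. Right, the number of members called lower (to the left) and higher (to the right) of those tested: 13 of 16 streak genes rose, and 18 of 25 stress response and 16 of 21 hypoxia genes fell.

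Some list medians near 0 depended on the scaling of the arrays. With quantile normalization or centring on medians the sign changed for the gate genes, later germ cells, core pluripotency, Nodal, blood and endothelium, histone methylation, imprinted genes, oxidative phosphorylation, p53 targets, and integrins and matrix. With arrays centred on their medians, the median log2 difference of the streak list was 1.75, of the BMP list 0.63, of the PGC list 0.59 and of the stress response list -1.31, so these kept their direction.

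The integrated stress response, by which cells answer amino acid or protein folding stress through Atf4, gave the greatest number of falls of any list, 18 of 25 with none higher and a median log2 difference of -1.16. After *Nupr1*, the secreted glycoprotein gene *Stc2* had 1131 and 1128 in ESCs and 92.8 and 120.0 in iPGCs (log2 difference -3.25 ± 0.27 (SE), adjusted p = 0.000506), and *Chac1*, which degrades glutathione, had 859.6 and 667 in ESCs and 85.4 and 94.5 in iPGCs (log2 difference -2.88 ± 0.18 (SE), adjusted p = 0.000208). Neither overlapped between groups, as held for all 102 genes at least 4-fold lower. In somatic cells *Stc2* had 136 and 119 and *Chac1* 122 and 92.2, so the somatic cells of the EB did not pass the test against iPGCs in either gene, and ESCs were the bright group. Over the list, iPGCs were above somatic cells in 7 of 25 members and below them in 6, near the shares of 27.3% and 24.2% over all genes.

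Hypoxia-responsive genes fell in 16 of 21 cases and rose in none, with a median log2 difference of -1.32. This and the stress response list had the 2 lowest medians of the 36, in an order that turned without iPGC replicate 2 (-1.09 against -1.21) and tied without ESC replicate 2 (-1.29) and with quantile normalization (-1.08). *Bhlhe40*, a repressor that HIF induces, had 4881 and 5320.4 in ESCs and 459 and 170.5 in iPGCs (log2 difference -4.11 ± 0.37 (SE), adjusted p = 0.000633), with iPGC arrays more than 2-fold apart but both far under ESCs. *Ndrg1*, a stress-induced gene of differentiation, had 2605 and 3017 in ESCs and 319 and 180.3 in iPGCs (log2 difference -3.46 ± 0.40 (SE), adjusted p = 0.00141), and *Adm*, the vasodilator peptide adrenomedullin, had 4021 and 3586 in ESCs and 659 and 592 in iPGCs (log2 difference -2.58 ± 0.15 (SE), adjusted p = 0.000208). Somatic cells had 3115 and 1785 for *Ndrg1* and 2135 and 1762 for *Adm*, above iPGCs in both, whereas *Bhlhe40*, with 436 and 541, did not pass the test against iPGCs. Over the list, iPGCs were above somatic cells in 7 of 21 members and below them in 8, beside 27.3% and 24.2% of all genes. Glycolysis genes, many of them HIF targets and 5 of them (*Hk2*, *Slc2a1*, *Slc2a3*, *Ldha* and *Pgk1*) shared with the hypoxia list, fell in 11 of 18 cases and rose in none, with a median of -0.51. *Aldoc*, an aldolase, had 2134 and 2473 in ESCs and 614 and 461 in iPGCs (log2 difference -2.08 ± 0.27 (SE), adjusted p = 0.00211), *Slc16a3*, the lactate exporter Mct4, had 1962 and 1899 in ESCs and 667 and 543 in iPGCs (log2 difference -1.66 ± 0.14 (SE), adjusted p = 0.000511), and *Pfkl*, a phosphofructokinase subunit, had 5314 and 5734 in ESCs and 2469.7 and 1860.1 in iPGCs (log2 difference -1.36 ± 0.16 (SE), adjusted p = 0.0016). Of oxidative phosphorylation and TCA cycle genes 6 of 24 fell and 1 rose, all by less than 2-fold, and with quantile normalization 2 fell and 2 rose.

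Immediate early genes were read because both groups had been dissociated with trypsin. Of 23 tested 6 rose and 9 fell. *Fos*, the AP-1 subunit, had 1241 and 1455 in ESCs and 368 and 420.4 in iPGCs (log2 difference -1.74 ± 0.31 (SE), adjusted p = 0.00666), and *Ier3*, a survival gene induced by growth factors and stress, had 2090.4 and 1949.6 in ESCs and 501 and 577 in iPGCs (log2 difference -1.88 ± 0.20 (SE), adjusted p = 0.00112). In the other direction, the early response gene *Ier5* had 129 and 201 in ESCs and 1293 and 841 in iPGCs (log2 difference 2.59 ± 0.27 (SE), adjusted p = 0.000985), and *Ccn2*, the connective tissue growth factor and a target of Yap and SRF, had 274 and 477 in ESCs and 1896 and 2214 in iPGCs (log2 difference 2.45 ± 0.34 (SE), adjusted p = 0.00268). The list thus held members brighter in ESCs and members brighter in iPGCs.

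Genes of actin, adhesion and stress fibres fell in 9 of 30 cases and rose in 5. *Anxa2*, a membrane-binding annexin, had 2163 and 2561 in ESCs and 207 and 128 in iPGCs (log2 difference -3.73 ± 0.22 (SE), adjusted p = 0.000208), with 1 of its 2 probe sets passing. *Lmna*, which encodes the nuclear lamins A and C, had 1399 and 1326 in ESCs and 209 and 122 in iPGCs (log2 difference -2.97 ± 0.25 (SE), adjusted p = 0.000539), with all 3 probe sets lower. *Parvb*, a focal adhesion protein, had 1085 and 1039.8 in ESCs and 305 and 262 in iPGCs (log2 difference -1.86 ± 0.27 (SE), adjusted p = 0.00339). All 3 genes were brighter in somatic cells than in ESCs, *Anxa2* with 4884 and 4086, *Lmna* with 2563 and 2109 and *Parvb* with 1374 and 1239, so that iPGCs were the low group of the 3 in each. Over the list 25 of 30 members were lower in iPGCs than in somatic cells, as were 24.2% of all genes. Of integrins and matrix genes 3 of 23 were higher and 4 lower, near the shares of 17.3% and 12.9% over all genes. Against the rise of *Itgb3*, the fibronectin receptor subunit *Itga5* had 539 and 564 in ESCs and 223 and 249 in iPGCs (log2 difference -1.18 ± 0.15 (SE), adjusted p = 0.0019), the leukocyte integrin subunit *Itgb7* had 622 and 596 in ESCs and 206 and 254 in iPGCs (log2 difference -1.36 ± 0.14 (SE), adjusted p = 0.000925), and the basement membrane gene *Nid1* had 1704 and 1648 in ESCs and 557 and 675 in iPGCs (log2 difference -1.43 ± 0.19 (SE), adjusted p = 0.00222).

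Migration and guidance genes went up, 12 of 22 with 1 lower and a median log2 difference of 0.79. The semaphorin and VEGF co-receptor *Nrp1*, at background in ESCs, was at least 12.7-fold higher (6.65 and 10.9 to 204 and 182, adjusted p = 0.00307). *Efna1*, a membrane-bound ligand of Eph receptors, had 153 and 146 in ESCs and 579 and 474 in iPGCs (log2 difference 1.71 ± 0.26 (SE), adjusted p = 0.00361). *Cxcl12*, the chemokine that guides germ cells, had 49.9 and 99.6 in ESCs and 405 and 306 in iPGCs, and leaving out any of the 4 arrays ended its call (adjusted p 0.0635 to 0.146). The receptor gene *Epha2* was the member that fell, with 1025 and 999 in ESCs and 276 and 399.7 in iPGCs, and its adjusted p was 0.0581 to 0.0622 without ESC replicate 1, ESC replicate 2 or iPGC replicate 1. Again the somatic level of *Nrp1*, 7121 and 5601, lay above the iPGC level, and 15 of the 22 members were lower in iPGCs than in somatic cells, beside 24.2% of all genes.

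Of the chromatin genes, a larger share was called in the DNA methylation list than in that of histone methylation. Of 16 tested members of the DNA methylation list 7 fell and 2 rose, and 4 fell and 1 rose with only the 4 arrays compared. *Dnmt3l*, the cofactor of the de novo methyltransferases, had 5702 and 5558 in ESCs and 2119 and 1870.3 in iPGCs (log2 difference -1.49 ± 0.32 (SE), adjusted p = 0.0129), with adjusted p of 0.0511 to 0.0624 without ESC replicate 1, ESC replicate 2 or iPGC replicate 2. *Zfp57*, which keeps methylation at imprints, had 2807 and 3108 in ESCs and 1185 and 1579.8 in iPGCs (log2 difference -1.10 ± 0.17 (SE), adjusted p = 0.00363), and *Gadd45b*, a stress gene linked to DNA demethylation, had 1334 and 1509 in ESCs and 665 and 579.5 in iPGCs (log2 difference -1.17 ± 0.17 (SE), adjusted p = 0.0031), while the methyl-CpG binding gene *Mbd2* had 726 and 644 in ESCs and 1466 and 1468 in iPGCs (log2 difference 1.08 ± 0.18 (SE), adjusted p = 0.00522). Of histone methylation genes 1 of 22 rose and 2 fell. With limma-trend 6 of the 22 rose and 3 fell, and of the DNA methylation list 3 rose and 8 fell. *Kdm6b*, a demethylase of H3K27, had 1416 and 834 in ESCs and 196 and 169.9 in iPGCs (log2 difference -2.48 ± 0.37 (SE), adjusted p = 0.00339), with all 3 probe sets lower. Imprinted genes rose in 9 of 25 cases and fell in 4. *Igf2*, the fetal growth factor, had 96.8 and 110.4 in ESCs and 945 and 964 in iPGCs (log2 difference 3.04 ± 0.16 (SE), adjusted p = 0.000208) and far more in somatic cells, 10529.7 and 12027. *Peg12*, a paternally expressed inhibitor of Gsk3, had 26.7 and 23.3 in ESCs and 139.9 and 257 in iPGCs (log2 difference 2.37 ± 0.31 (SE), adjusted p = 0.00217). Against somatic cells, 18 of the 25 were lower in iPGCs, beside 24.2% of all genes. Array signals do not tell the parental alleles apart.

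A larger share of genes rose on the X chromosome than on any autosome. Of 411 X-linked genes tested 25.5% were higher and 9.98% lower, against 12.6% to 22.3% higher on the autosomes. X-linked genes made up 411 of the 12208 tested and 18 of the 145 at least 4-fold higher. Those 18 include *Rhox9*, *Rhox6* and *Plac1*, named above, and others chosen after their values were seen. *Amot*, a Hippo pathway scaffold, had 148 and 178 in ESCs and 2255 and 1613 in iPGCs (log2 difference 3.44 ± 0.20 (SE), adjusted p = 0.000208), and *Nrk*, a kinase of the placenta, had 56.9 and 45.6 in ESCs and 779 and 674 in iPGCs (log2 difference 3.49 ± 0.21 (SE), adjusted p = 0.000208). In both, as in *Plac1*, the somatic level was above that of iPGCs, at 7835 and 8548 for *Amot* and 1095 and 1108 for *Nrk*. *4933402E13Rik* had 50.8 and 52.2 in ESCs and 1091 and 807 in iPGCs (log2 difference 3.85 ± 0.35 (SE), adjusted p = 0.000633), and *Ct55*, a cancer and testis gene, had 45.5 and 27.7 in ESCs and 323 and 273 in iPGCs (log2 difference 2.62 ± 0.30 (SE), adjusted p = 0.0014). Unlike *Amot*, these were dim in somatic cells, *4933402E13Rik* with 27.6 and 5.58 and *Ct55* with 0.972 and 8.33. The X-linked genes at least 4-fold higher therefore held both kinds, those shared with somatic cells and those brighter in iPGCs. The autosomes that came closest in share were 18, 3 and 1, at 22.3%, 22.1% and 21.8%. No test was made over chromosomes.

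**Figure D4:**
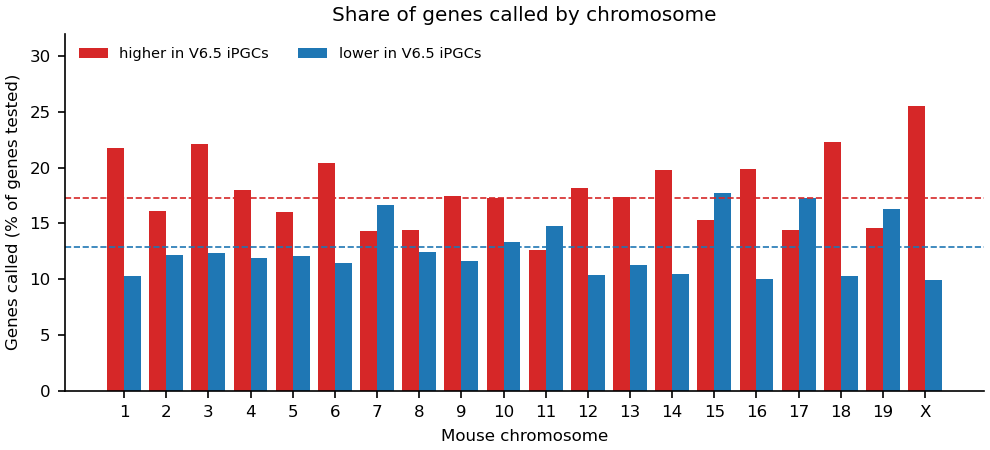
Share of tested genes called higher (red) and lower (blue) in V6.5 iPGCs on each chromosome, in percent, with dashed lines at the shares over all genes, 17.3% and 12.9%. The X chromosome has the tallest red bar, 25.5%, with chromosomes 18, 3 and 1 next.

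Markers of the fibroblast feeder were read on every array, since ESCs had been grown on it. Of 23 tested, 8 fell and 2 rose, and the summed signal of 26 markers was 5195 and 5768 in ESCs, 2810 and 3510 in iPGCs, against 29971 and 29671 in somatic cells. *Timp1*, the brightest of them in ESCs, weighed most in the ESC sum. It had 2038 and 1903 in ESCs and 440 and 683 in iPGCs (log2 difference -1.82, adjusted p = 0.00523). *Thy1*, *S100a4* and *Loxl1* were called lower too. The collagen crosslinking enzyme gene *Lox* was at least 8.60-fold lower (127 and 199 to 4.77 and 4.53, adjusted p = 0.000213), and was dim in somatic cells too, with 16.4 and 15.9. *Tnc*, the matrix protein tenascin C, had 127 and 100.2 in ESCs and 1.31 and 7.15 in iPGCs, and *Mmp3*, a matrix metalloproteinase, had 79.3 and 216 in ESCs and 6.02 and 24.0 in iPGCs. Their adjusted p passed 0.05 without iPGC replicate 1 or ESC replicate 2 and, for *Tnc*, without ESC replicate 1, at 0.0547 to 0.0657 and 0.0607 to 0.0752. The collagens that define fibroblasts were dim in ESCs, *Col1a2* with 84.5 and 110.3 and *Col3a1* with 41.7 and 40.3, and *Col1a2* was dimmer still in iPGCs (54.1 and 12.6, adjusted p = 0.0467). *Col1a1* rose, with 119 and 149 in ESCs and 347 and 461 in iPGCs (log2 difference 1.49 ± 0.24 (SE), adjusted p = 0.00497). *Dcn* and *Lum*, small proteoglycans of fibroblasts, were at or near background in both groups. The part of feeder RNA in the genes that fell was not tested.

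Cell cycle genes rose in 3 of 29 cases and fell in 5, beside 17.3% and 12.9% of all genes. *Ccne1*, cyclin E1, had 4618 and 3954 in ESCs and 1926 and 2465 in iPGCs (log2 difference -0.97 ± 0.17 (SE), adjusted p = 0.00587). Of p53 targets and apoptosis genes 2 of 21 rose and 7 fell, with *Phlda3*, an inhibitor of Akt, at 1194 and 1386 in ESCs and 557 and 425 in iPGCs (log2 difference -1.38 ± 0.20 (SE), adjusted p = 0.00298). Cholesterol synthesis gave 2 of 18 higher and 3 lower, all under 2-fold, beside the same shares of all genes. Iron handling gave 3 of 10 higher and 1 lower, and beside *Slc40a1* the ferroxidase *Heph*, at background in ESCs, was at least 2.01-fold higher. Interferon response genes rose in 5 of 15 cases and fell in none, among them the transcription factor *Irf1* with 716 and 735 in ESCs and 2379 and 1707 in iPGCs (log2 difference 1.46 ± 0.26 (SE), adjusted p = 0.00646), although the median of the list was only 0.24. Of genes of cells that resemble the two-cell embryo, 3 were tested and *Dazl* alone rose.

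The V6.5 iPGC arrays differed from each other more than the ESC arrays did. After the offset, their signals were at least 4-fold apart for 19 genes, against 2 genes for the ESC pair, and at least 2-fold apart for 354 against 124. Of the 19, the widest apart was *Tarbp2*, an RNA-binding partner of Dicer, with 146 and 2007, which was also uneven in ESCs, at 534 and 151. *Slc39a8*, a zinc and manganese importer, was the only one of the 19 that also passed the test between groups, with 43.1 and 67.8 in ESCs and 931 and 218 in iPGCs (log2 difference 2.76 ± 0.56 (SE), adjusted p = 0.0106), and its somatic arrays had 3810.1 and 2973. *Pou3f1*, a POU factor of the epiblast just short of a 4-fold gap, had 610.4 and 144 on the iPGC arrays against 340.5 and 339 in ESCs and was not called. These genes were chosen after their values were seen. Like *Fgf5*, *Pou3f1* was brighter on iPGC replicate 1.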

How the data were processed

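The series held 10 arrays of 5 groups, 2 arrays a group. The deposited values were signal intensities of 45101 probe sets on a linear scale. According to the submitters' processing notes the authors made these intensities with MAS5, no version being given, whereas the study's methods name D-Chip with invariant set normalization. All arrays shared a 2% trimmed mean of 500, and probe set names, not a genome build, identify the values.

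Here 64 control probe sets were left out, the 25th percentile of all values (14.8) was added, and log2 values were fitted with limma 3.58.1 in R 4.3.3, with all 10 arrays in 1 model of 5 groups and 5 residual degrees of freedom. A probe set was tested (26372 were) if its signal exceeded the array's median on 2 or more arrays, p-values were two-sided and adjusted by Benjamini-Hochberg, and calls were made under 0.05. For each gene the probe set with the highest mean over the 10 arrays was used. Of the 12208 genes 6019 had several probe sets, and 124 had probe sets called in opposite directions. Of all probe sets 34958 had 1 symbol, 932 several and 9211 none. A gene was at background in a group where both arrays lay at or below the 95th percentile of olfactory receptor probe sets, and folds against such a group are lower bounds. The code of the fit was run on simulated data with independent normal noise at the fit's own spread. That checks the code and says nothing of the calls on these arrays. Figures were drawn with matplotlib 3.10.9.

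Genes named are the 12 largest changes in each direction without overlap and above background in the brighter group, up to 3 called members of each list in each direction, the gate genes, the PGC signature genes and genes the study names. Cell type markers and promoter examples are named beside them. Members and lists were chosen with earlier results of these data known. The labels do not say that replicates were separate cultures, so p-values measure the spread between these samples only. Precision is limited by the 2 arrays a group. Alternatives changed the offset, filter, normalization, arrays in the fit, moderation, weights, replicate block and probe set choice, and left out each array in turn.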

Additional observations from a re-analysis of the deposited data

How the results depend on the processing

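The counts of calls moved with the arrays fitted and with the scaling. Higher and lower probe sets numbered 4100 and 3078, 1909 and 1530 when only the 4 arrays compared were fitted, and 2023 and 3176 with arrays centred on their medians. Leaving out one array in turn gave 1793 to 3231 higher and 1145 to 2335 lower probe sets. Genes at least 4-fold higher numbered 145, 93 with the offset doubled and 231 with a floor in its place. Genes at least 4-fold lower numbered 102, 161 with a floor and 66 when a probe set had to pass the filter on 4 arrays. The groups share replicate numbers 1 and 2, but nothing says that a number marks a shared culture. Deviations of same-numbered V6.5 ESC and iPGC arrays correlated at 0.26. With the replicate number as a block, 3542 probe sets were higher and 2719 lower, and with the block on the 4 arrays alone, an alternative chosen after seeing the data, 1863 and 1333. Of 182 named genes 168 were called. Of these, 112 kept the call in every alternative that tested them, setting aside single arrays left out and the block on 4 arrays. Over all alternatives that tested them 101 kept it. A gene that a filter left untested was not counted as lost. With the filter on 4 arrays, 167 of the 182 were tested. The cell cycle kinase gene *Cdk6* changed sign, to a log2 difference of -0.14, when the probe set was chosen on the 4 arrays. The causes of these shifts were not tested. Signals near background carry bounds only.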
